A study of Mus musculus with 12 samples.

Results

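The miR-23/27/24 family was followed through 2 days of the light-dark cycle in mouse liver. Its members here are the 5 array entries mmu-miR-23a, mmu-miR-23b, mmu-miR-27a, mmu-miR-27b and mmu-miR-24 (mouse, written without the prefix from here on), taken by name without their passenger (star) arms, 5 of the 650 entries of the array. All 5 were detected on every one of the 12 arrays, and all 5 are among the 139 entries that were tested. Adult mice, of a strain and sex that the labels do not give, had free food and water under lights that were on for 12 h and off for 12 h, with zeitgeber time (ZT) counted in hours from lights on. Livers were collected every 4 h from ZT18 to ZT62, and each array received pooled RNA from 2 livers. The 6 dark arrays were ZT18, ZT22, ZT38, ZT42, ZT46 and ZT62, and the 6 light arrays were ZT26, ZT30, ZT34, ZT50, ZT54 and ZT58. Each of 6 clock times (2, 6, 10, 14, 18 and 22 h after lights on) thus had 2 arrays 24 h apart, the later one called cycle 2 and the earlier one cycle 1. Replicates are pools of livers, so p-values measure the spread between pools and hybridisations and not between mice. In the rhythm and dark-light tests this spread also takes in clock-time differences that the fit leaves out. Differences between cycles enter it too, except in the cycle test.

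MicroRNAs guide a silencing complex to messenger RNAs, mainly through the seed, bases 2 to 8 of the miRNA. The family comes from a pair of related clusters: miR-23a, miR-27a and miR-24 are processed from one primary transcript, and miR-23b, miR-27b and the same miR-24 from another. Members of the family are known for roles in blood vessel growth and lipid metabolism, and miR-27 represses the adipocyte regulator Pparg. The miR-23b cluster has been reported to repress Smad genes, and with them bile duct genes, in fetal mouse liver cells. Of the family, miR-27b and miR-24 have been tied to the clock itself: miR-27b is reported to repress Bmal1, a core activator, and miR-24 is reported to act on the Period genes, its repressors.

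The mature sequences are shown because the array has to tell near-identical miRNAs apart and because the seeds define what the members share. They are from RefSeq on build GRCm38.p6, 5′ to 3′, with the seed in capitals. RefSeq places miR-23a-3p at chr8:84208563-84208583 (+), miR-27a-3p at chr8:84208727-84208747 (+) and miR-27b-3p at chr13:63300760-63300780 (+). It places miR-24-3p both at chr8:84208875-84208896 (+), from Mir24-2, and at chr13:63301251-63301272 (+), from Mir24-1.
miR-23a-3p: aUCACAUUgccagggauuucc
miR-27a-3p: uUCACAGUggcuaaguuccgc
miR-27b-3p: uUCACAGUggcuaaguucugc
miR-24-3p: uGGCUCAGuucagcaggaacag
miR-27a and miR-27b share the seed UCACAGU and differ by 1 base outside it, C19U, counted from the 5′ end with the miR-27a base first. miR-24 has the seed GGCUCAG, and its mature sequence is the same from both clusters, so the entry for miR-24 cannot say which cluster it came from. In RefSeq 4 other mouse miRNAs carry the miR-24 seed (miR-5124b, miR-6369, miR-6410 and miR-6413), and 0 of these are on the array. The 3 hairpins of the chromosome 8 cluster span 404 bases and lie within no other annotated gene. The 3 hairpins of the chromosome 13 cluster span 792 bases inside the protein-coding gene Aopep. How far miR-27a and miR-27b, or miR-23a and miR-23b, cross-hybridise to each other's probes was not tested.

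The arrays held scanner intensities on a linear scale, here scaled so that all arrays share the 75th percentile over the 157 probes detected on every array, with factors between 0.853 and 1.08. Between 132 and 162 entries were detected per array. miR-122, the defining miRNA of hepatocytes, had a mean scaled intensity of 31120, and 0 of 3 neuronal markers (miR-124, miR-9 and miR-128) were detected on any array. Slide 1 held the 8 arrays from ZT18 to ZT46, 5 of them dark, and slide 2 the 4 later ones, 1 of them dark. With 12 arrays, their number sets how precise any value can be.

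Each of the 5 members varied by at most 1.26-fold over the arrays. Scaled intensities are given throughout, and levels of different miRNAs are not set against each other, since they depend on the probe. miR-23a averaged 475 ± 23.6 intensity units (SD, n = 12), between 439 at ZT26 and 518 at ZT22. miR-27a, its neighbour on the same transcript, averaged 206 ± 14 (SD, n = 12), between 188 at ZT26 and 237 at ZT22. These members of the chromosome 8 cluster thus had their lowest and their highest array in common. miR-23b averaged 581 ± 30.1 (SD, n = 12), between 528 at ZT38 and 645 at ZT22. miR-27b averaged 291 ± 18.5 (SD, n = 12), between 267 at ZT38 and 334 at ZT22. The chromosome 13 members likewise shared both extremes. miR-24, which both clusters encode, averaged 403 ± 18.1 (SD, n = 12), between 374 at ZT26 and 434 at ZT34. From the lowest to the highest array the members spanned 1.18-fold (miR-23a), 1.26-fold (miR-27a), 1.22-fold (miR-23b), 1.25-fold (miR-27b) and 1.16-fold (miR-24). Their SDs over the arrays, 0.06 to 0.10 log2 units, all lay below the median of 0.10 over the tested entries. That comparison was not matched for brightness, and each member had a higher mean than 66.9% to 80.6% of the tested entries. Some other bright entries varied less, such as miR-16 and miR-30a, with an SD of 0.04 each.

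**Figure D1:**
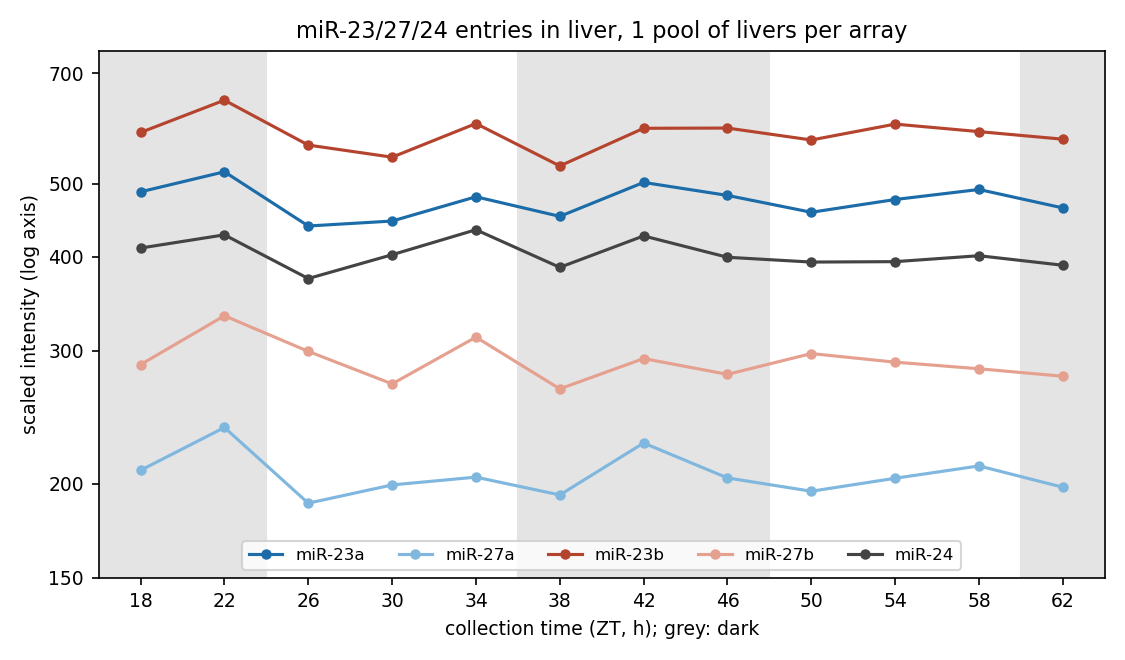
Scaled intensity (log axis) of the 5 entries against collection time in ZT hours, 1 point per array, with dark hours in grey. The lines are nearly flat: miR-23b stays between 528 and 645 units and miR-27a between 188 and 237, and 4 of the 5 entries are highest at ZT22.

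The passenger arms of the clusters, the strands usually discarded when a hairpin is processed, were not detected. miR-24-1*, miR-24-2*, miR-27a* and miR-27b* were each detected on 0 of 12 arrays, and the highest probe average of any of them on any array was 11.9 intensity units before scaling, for miR-27b*. The arms are printed in RefSeq's naming, with the seed in capitals, to set the undetected strands beside the detected ones.
miR-27a-5p: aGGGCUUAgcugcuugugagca
miR-27b-5p: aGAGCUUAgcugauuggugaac
miR-24-1-5p: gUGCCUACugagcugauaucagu
miR-24-2-5p: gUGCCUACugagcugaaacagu
RefSeq places them at chr8:84208685-84208706 (+), chr13:63300718-63300739 (+), chr13:63301213-63301235 (+) and chr8:84208839-84208860 (+). The array entries miR-24-1* and miR-24-2* are taken to be the last pair by the names of their hairpins. An undetected arm here means a signal not well above background, not absence.

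Each member was read by 2 probes, with 8 to 10 spots of the brighter one kept on each array, and both probes of every member were detected on all 12 arrays. The brighter probe gives the values in the text, and the other one repeats the measurement on the same RNA and hybridisation. Over the arrays the 2 probes correlated with r of 0.91 for miR-23a, 0.86 for miR-27a, 0.84 for miR-23b, 0.89 for miR-27b and 0.72 for miR-24. These are descriptions, since the probes share the array. Spots of the brighter probe on an array had a median SD of 0.06 log2 units for miR-23a, 0.08 for miR-27a, 0.05 for miR-23b, 0.07 for miR-27b and 0.04 for miR-24, and the standard error of their mean was 0.01 to 0.03. The SD over arrays was 0.07, 0.10, 0.07, 0.09 and 0.06 log2 units in the same order. Spot error covers the hybridisation on an array only and leaves out labelling and the livers.

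The highest array of the members recurred in their other probes. At ZT22, late in the first night, miR-27a stood 0.21 log2 units above its own mean, miR-27b 0.20, miR-23b 0.15, miR-23a 0.13 and miR-24 0.09. With the other probe these deviations were 0.27, 0.24, 0.23, 0.22 and 0.10, and ZT22 was the highest array for 5 of 5 members. With the brighter probe it was the highest for 4 of 5, against 23.9% of the 109 entries that never lay at the floor. For the other probe the share over all entries was not computed. The members correlate with each other and both probes share the hybridisation, so these counts are not of separate observations. The array 24 h later was not high. At ZT46 the same clock time gave 482 units for miR-23a, 204 for miR-27a, 592 for miR-23b, 279 for miR-27b and 399 for miR-24, within 0.06 log2 units of each member's mean. The difference ZT46 minus ZT22 was -0.10 log2 units for miR-23a, -0.22 for miR-27a, -0.12 for miR-23b, -0.26 for miR-27b and -0.10 for miR-24. Among markers of other liver cells, the 3 tested of 5 smooth muscle and stellate entries were all highest at ZT22 too, with a summed intensity of 254 at ZT22 and of 170 to 209 on the other 11 arrays. Of that list miR-145 was detected on 0 arrays and miR-214 on 1. The 2 endothelial markers summed to 1432 units at ZT22 and to between 1325 and 1463 elsewhere. The summed levels of the hepatocyte, leukocyte and red cell lists at ZT22 also lay within the range of the other arrays. Such a sum rests mostly on the brightest entry of its list. As single entries, 1 of 4 tested hepatocyte markers was highest at ZT22, and 0 of 2 endothelial, 0 of 4 leukocyte and 0 of 2 red cell markers were. The part of the smooth muscle and stellate markers in the members' ZT22 values was not tested, and in whole liver RNA more cells of a type and more RNA per cell cannot be told apart.

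**Figure D2:**
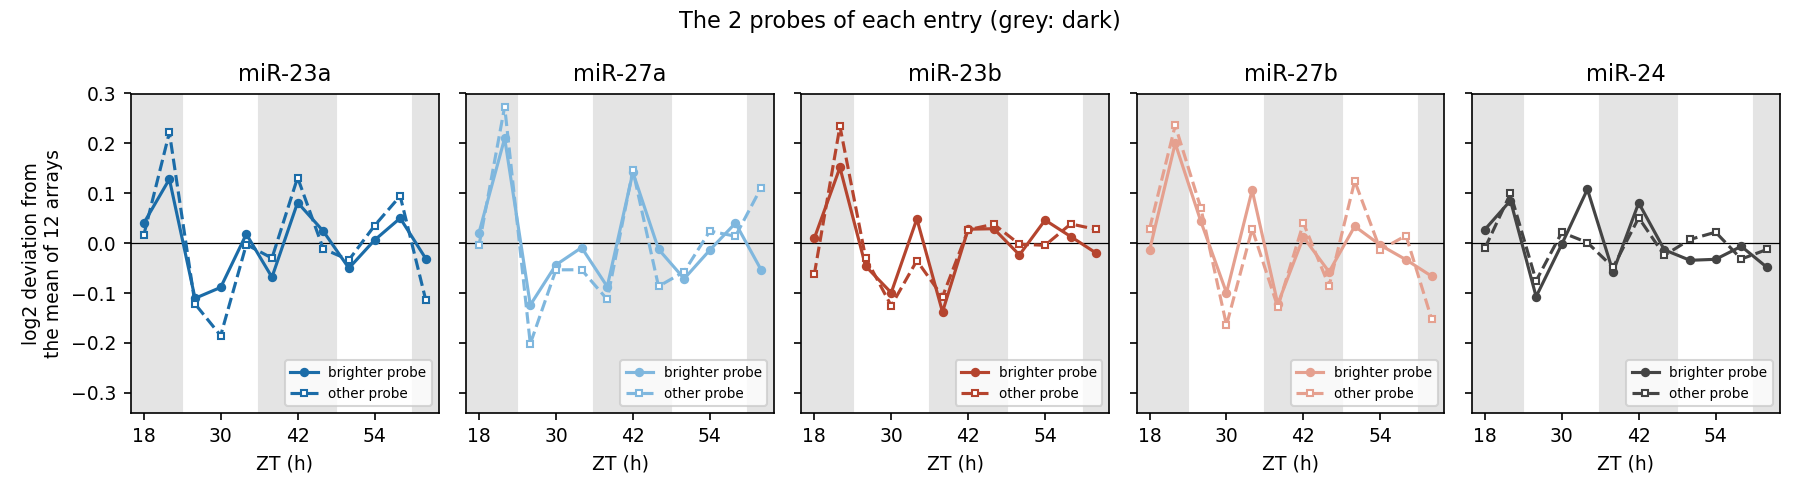
Deviation of each array from the entry's mean over 12 arrays (log2 units) against ZT in hours, for the brighter probe (filled) and the other probe (open), with dark hours in grey. Both probes of all 5 entries lie above their mean at ZT22. At ZT46 the brighter probes lie within 0.06 of their mean, and the other probe lies at -0.09 for miR-27a and miR-27b.

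The title of the series asks how miRNAs bear on circadian rhythm, so each member was first tested for a 24-h rhythm. The fitted rhythms were small. miR-27b, the reported repressor of Bmal1, was fitted with a 1.07-fold peak over trough, an upper 95% limit of 1.23 and a maximum 24 h after lights on, which is lights on itself. miR-24 had a fold of 1.04 (upper limit 1.15), with the maximum at 16.6 h. miR-23a had a fold of 1.07 (upper limit 1.19) with the maximum at 18.3 h, and miR-27a 1.08 (upper limit 1.26) with the maximum at 19.1 h. miR-23b had a fold of 1.05 (upper limit 1.18), with the maximum at 22 h. In limma's F test for a 24-h period, 0 of 5 members and 0 of 139 entries (0% called) had an adjusted p under 0.05. The members' adjusted p was 0.957, except 0.990 for miR-24. At an unadjusted p under 0.05 there were 0 of 5 members and 5 of 139 entries, or 3.6%, and a permutation of the time labels gave 6 entries. The median fold was 1.07 over the members and 1.08 over all tested entries.

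Dark arrays were then set against light arrays, a contrast that in nocturnal mice also separates activity and feeding from rest. miR-23a measured 452, 485 and 518 units (lowest, median and highest of 6) in the dark, against 439, 467 and 491 units in the light. Dark over light was 1.04-fold (95% interval 0.982 to 1.10). For miR-27a the dark arrays measured 193, 206 and 237 units and the light arrays 188, 201 and 211 units, a fold of 1.05 (0.973 to 1.14). In both the groups overlapped, with the highest dark array above every light array and the lowest light array below every dark array. miR-23b measured 528, 588 and 645 units in the dark and 542, 579 and 601 units in the light, a fold of 1.01 (0.949 to 1.08). miR-27b measured 267, 284 and 334 units in the dark and 271, 294 and 313 units in the light, a fold of 0.989 (0.913 to 1.07). The dark groups of both chromosome 13 members held their lowest and their highest array, so the light arrays lay inside the dark range. miR-24 measured 387, 405 and 428 units in the dark and 374, 398 and 434 units in the light, a fold of 1.02 (0.961 to 1.08). In limma 0 of 5 members and 0 of 139 entries (0% called) passed an adjusted p of 0.05, the members' adjusted p lying between 0.740 and 0.982. At an unadjusted p under 0.05 there were 0 of 5 members and 11 of 139 entries, or 7.91%, also by the exact permutation test. Without the ZT30 array 2 entries passed the adjusted test, 0 of them members.

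The sign of these small differences held under every processing alternative for miR-23a, and for miR-23b except without the ZT22 array (-0.00817 log2 units), and it turned with the processing for the other members. The means of 4 of 5 members were higher in the dark, against 29.5% of all entries (6 entries at the floor on all 12 arrays had no difference), with a median of 0.02 log2 units over the members and -0.02 over all entries. When arrays were scaled on all probes, miR-27b stood at 0.41 log2 units higher in the dark beside a median of 0.38 for all entries. Under another background correction (normexp), which is not a scaling, miR-27a stood at -0.12 and miR-24 at -0.05, beside a median of -0.36. Within slide 1 the dark minus light difference was 0.10 log2 units for miR-23a, 0.11 for miR-27a, 0.05 for miR-23b, -0.01 for miR-27b and 0.02 for miR-24. Within slide 2, which had 1 dark array, the differences were -0.03, -0.04, -0.03, -0.07 and -0.02 log2 units in the same order. The summed smooth muscle and stellate markers lay between 170 and 254 units in the dark and between 171 and 203 units in the light, and the sums of the other lists overlapped as well.

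**Figure D3:**
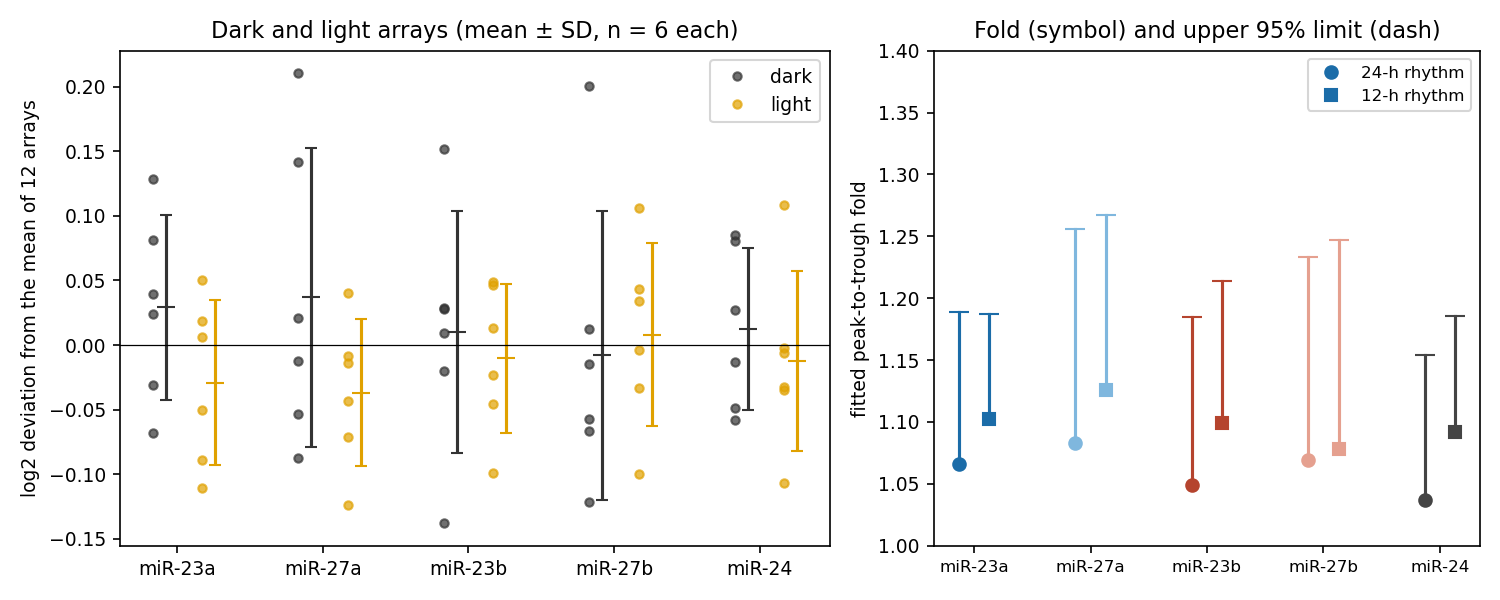
Left, deviation of each array from the entry's mean (log2 units) for dark and light arrays, with mean ± SD (n = 6 each); the groups overlap for all 5 entries. Right, fitted peak-to-trough fold of the 24-h (circle) and 12-h (square) rhythm with its upper 95% limit (dash); every limit lies at or below 1.27.

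Clock times of any shape were compared next. miR-23a measured 502 and 488 units at 18 h and 482 and 518 units at 22 h, against 458 and 439 units at 2 h, so that its clock-time means spanned 1.11-fold. At 18 h and 22 h its arrays did not overlap those at 2 h. miR-27a spanned 1.15-fold, with means of 220 units at 22 h and 192 units at 2 h, and miR-24 spanned 1.09-fold, with 418 units at 18 h and 384 units at 2 h. miR-23b and miR-27b were lowest at 14 h and highest at 22 h, and each spanned 1.12-fold. The 22-h mean of miR-27b combined 279 units at ZT46 with 334 units at ZT22, so its 2 arrays differed by more than the clock-time means did. In limma's F test over 6 clock times 0 of 5 members and 0 of 139 entries (0% called) had an adjusted p under 0.05, with adjusted p of 0.805 for 4 members and 0.821 for miR-27b. At an unadjusted p under 0.05 there were 0 of 5 members and 6 of 139 entries, or 4.32%, and a permutation test gave 5. Without the ZT26 array 8 entries passed, without ZT46 2, and without ZT54 or ZT58 1 each, in fits in which the lone array of that clock time is assumed to vary like the others; 0 of these were members.

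Cycle 2 was set against cycle 1 within clock times. The cycle 2 over cycle 1 fold was 1.02 (95% interval 0.973 to 1.07) for miR-23a and 1.01 (0.931 to 1.09) for miR-27a, each higher in 5 of 6 pairs, the pair at 22 h being the exception. It was 1.02 (0.953 to 1.08) for miR-23b, higher in 4 of 6 pairs. For miR-27b it was 0.974 (0.892 to 1.06) and for miR-24 0.988 (0.938 to 1.04), each higher in 3 of 6 pairs. In limma 0 of 5 members and 0 of 139 entries (0% called) had an adjusted p under 0.05, and the members' adjusted p lay between 0.866 and 0.974. At an unadjusted p under 0.05 there were 0 of 5 members and 5 of 139 entries, or 3.6%, and an exact sign-flip permutation over the 6 pairs, whose smallest possible p is 0.03125, gave 1. The means of 3 of 5 members were higher in cycle 2, against 59.7% of all entries. Slide 2 held only cycle 2 arrays, so only the pairs at 18 h and 22 h had both arrays on slide 1. With the slide as a block the difference rested on these pairs, the one with ZT22 among them. It was then -0.03 log2 units for miR-23a, -0.05 for miR-27a and -0.05 for miR-23b, so its sign was not fixed by these arrays.

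A rhythm with 2 maxima a day was tested by adding a 12-h period to the 24-h fit. The fitted fold was 1.10 for miR-23a (upper 95% limit 1.19), 1.13 for miR-27a (1.27), 1.09 for miR-24 (1.19), 1.10 for miR-23b (1.21) and 1.08 for miR-27b (1.25). The fitted maxima lay close together, at 8.74 and 20.7 h after lights on for miR-23a, at 8.40 and 20.4 h for miR-27a, at 8.44 and 20.4 h for miR-24, at 9.11 and 21.1 h for miR-23b and at 9.98 and 22 h for miR-27b. Similar maxima were fitted for entries outside the family, such as miR-122 (8.76 and 20.8 h) and let-7a (9.2 and 21.2 h). Others differed, such as miR-16 (5.12 and 17.1 h). The closeness is thus not particular to the members. In limma 0 of 5 members and 0 of 139 entries (0% called) passed an adjusted p of 0.05. The adjusted p was 0.622 for 4 members and 0.867 for miR-27b. At an unadjusted p under 0.05 there were 3 of 5 members (miR-23a at 0.0139, miR-24 at 0.0376 and miR-27a at 0.0482, in limma) and 8 of 139 entries, or 5.76%. These 3 members correlate with each other over the arrays, so they are not separate observations. With the other probe of each member 0 of 5 reached an unadjusted p of 0.05, and 0 of 5 did so without scaling, with quantile normalization or with the software's total gene signal.

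The clearest feature of the members was that miR-23a and miR-27a varied together, while no other pair passed under every processing alternative. Over the 12 arrays miR-23a and miR-27a correlated with r = 0.93 (rho = 0.95), which was the highest r of any tested entry with miR-23a and also with miR-27a. The permutation p was 1e-05, the smallest that 100000 draws can give, and the adjusted p over the 10 pairs of members was 1e-04. Without ZT22 and ZT26, the 2 arrays farthest from the median of miR-23a, r was 0.87. For every pair the 2 arrays left out were those farthest from the median of 1 of its members. This narrows the range of that member, which can lower r by itself, so a drop does not show what a relation rests on. Within slide 1 it was 0.93, and slide 2 with 4 arrays is too small for a value. The corresponding pair of the chromosome 13 cluster, miR-23b and miR-27b, correlated with r = 0.80 (rho = 0.59, adjusted permutation p 0.00667 for r and 0.0661 for rho). Without ZT22 and ZT38, the 2 arrays farthest from the median of miR-23b, r was 0.45. With 1 array left out at a time it lay between 0.64 and 0.85.

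Between the clusters the paralogues were compared with each other. The paralogues miR-23a and miR-23b correlated with r = 0.85 (rho = 0.76, adjusted permutation p 0.00225 and 0.0171), and r was 0.80 without ZT22 and ZT26. miR-27a and miR-27b, though 1 base apart, correlated with r = 0.56 (rho = 0.34, adjusted permutation p 0.0690 and 0.286). Without ZT22 and ZT42, the 2 arrays farthest from the median of miR-27a, their r was 0.04. With 1 array left out at a time their r lay between 0.14 (without ZT22) and 0.69 (without ZT26). miR-24 correlated with miR-23a (r = 0.77, rho = 0.71) and miR-27a (r = 0.78, rho = 0.86), with adjusted permutation p of 0.00702 and 0.00667 for r and of 0.0228 and 0.0033 for rho. Its r with miR-23b was 0.63 (rho = 0.67, adjusted permutation p 0.0361 and 0.0337) and with miR-27b 0.55 (rho = 0.41, adjusted permutation p 0.0690 and 0.243). Without the 2 arrays farthest from the median of the member set against miR-24, these 4 values of r were 0.59, 0.68, 0.49 and 0.01. Whether the r of one pair differs from that of another was not tested, nor was the part of cross-hybridisation in the r of the paralogues.

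Of the 2 remaining pairs, miR-23b with miR-27a gave r = 0.77 (rho = 0.75, adjusted permutation p 0.00702 and 0.0171) and miR-23a with miR-27b r = 0.53 (rho = 0.34, adjusted permutation p 0.0726 and 0.286). Without the 2 arrays farthest from the median of the member named first, these r were 0.53 and 0.49. In all, 7 of 10 pairs had an adjusted permutation p under 0.05 for r and 6 for rho, and within slide 1 the 10 values of r lay between 0.56 and 0.93. The members' median r was 0.77, against a median of 0.18 over all 5886 pairs of entries that never lay at the floor, of which 2.56% reached 0.77 and 16% reached the lowest member pair. Each member had a higher mean than 66.9% to 80.6% of the tested entries, and the pairs were not matched for brightness. Arrays share labelling, hybridisation and scaling, which move entries together. The members' r with the scaling factor on the log2 scale lay between -0.30 and 0.11, beside a median of 0.16 over the same 109 entries.

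The number of correlated pairs moved with the processing, while miR-23a with miR-27a passed under every alternative tried. Without the ZT22 array 4 pairs passed, and without the ZT26 array 10. With quantile normalization 2 pairs passed (miR-23a with miR-27a at r = 0.82 and miR-23b with miR-27a at 0.72), and the median r over all pairs of entries was 0.02. With the software's total gene signal 1 pair passed (miR-23a with miR-27a, r = 0.83). Scaled on all probes 10 pairs passed, but there the median r over all pairs was 0.97. With the other probe of each member 6 pairs passed, and r between miR-23a and miR-27a was 0.69.

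**Figure D4:**
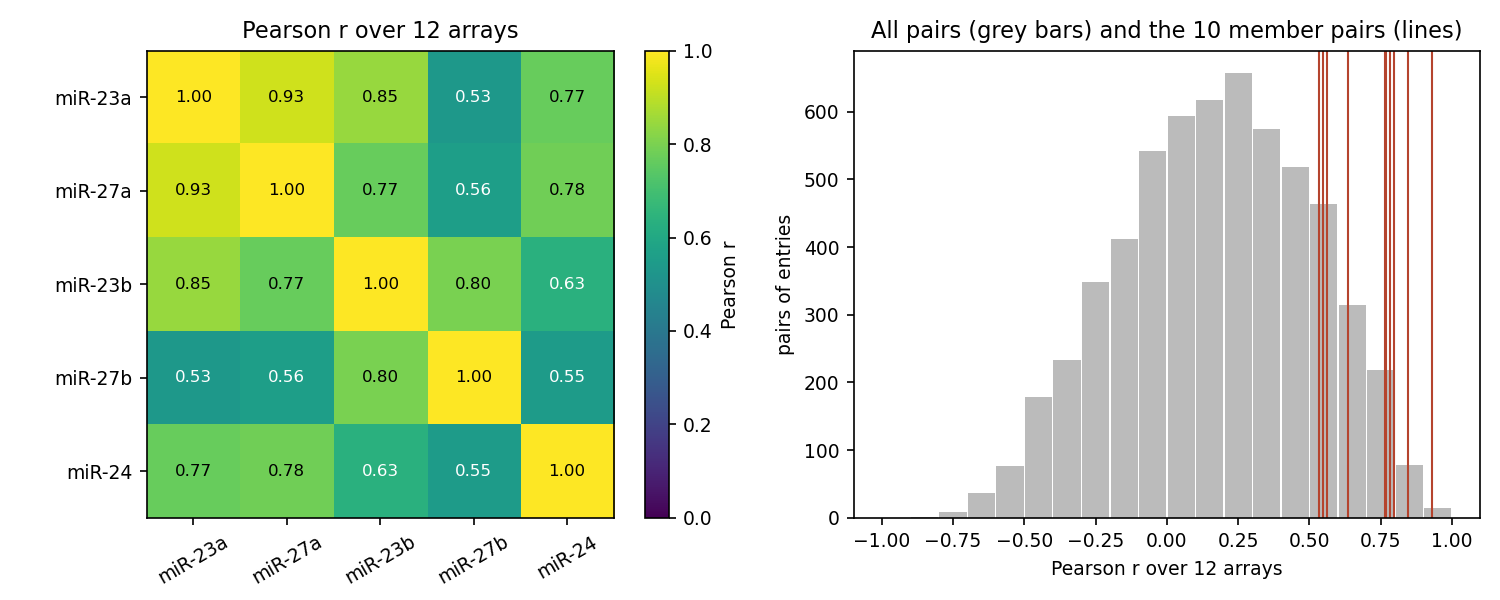
Left, Pearson r over 12 arrays for each pair of entries, with the chromosome 8 members first. Right, number of all pairs of entries by r (grey bars) with the 10 pairs of members as lines; the members' r run between 0.53 and 0.93 and the median of all pairs is 0.18.

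Ratios within an array do not depend on the scaling between arrays, so they show where members moved unequally. The log2 ratio of miR-27a to miR-23a varied with an SD of 0.04 over the arrays, close to the 0.03 that the spots' standard errors give. The ratio of miR-23b to miR-23a had an SD of 0.04, against 0.03 from the spots. The ratio of miR-27b to miR-23b had an SD of 0.05, against 0.03. For miR-27b to miR-27a the SD was 0.09, against 0.03 from the spots, with a span of 1.23-fold between ZT42, where it was lowest, and ZT26, where it was highest. On average this ratio lay 0.04 ± 0.04 log2 units below its mean in the dark and 0.04 ± 0.10 above it in the light (SD, n = 6 each), a difference smaller than the spread of the light arrays. Spot error leaves out labelling and the livers, and the ratios were not tested against each other.

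**Figure D5:**
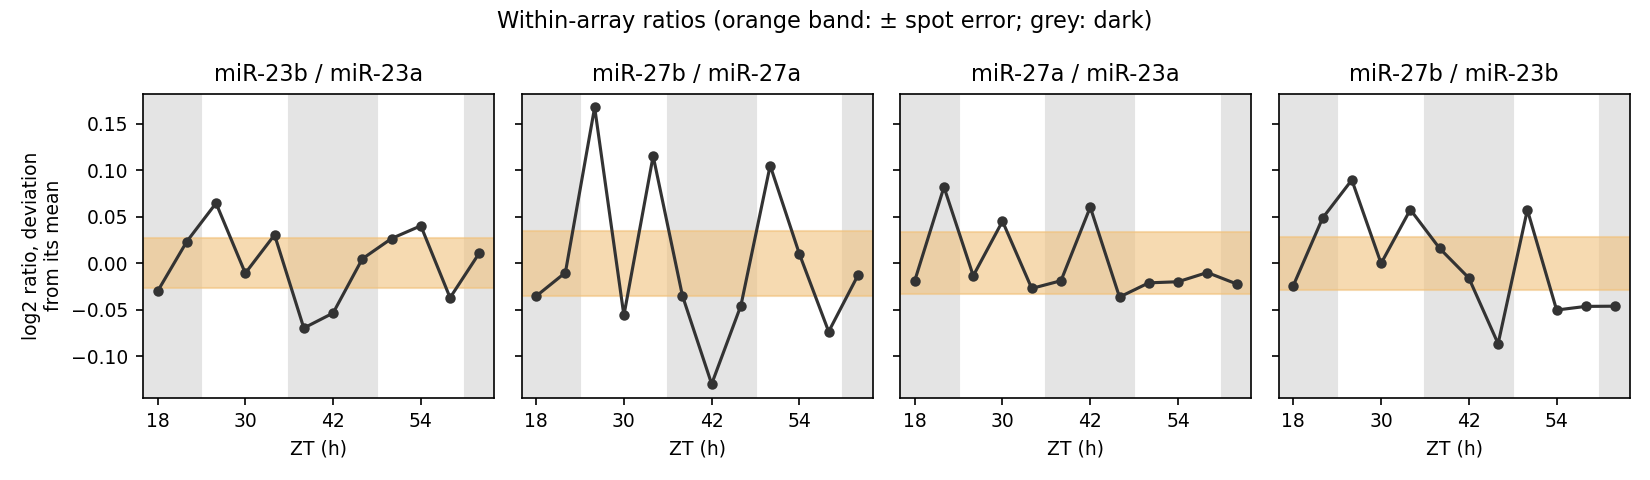
Log2 ratio of 4 pairs of entries within each array, as the deviation from its mean, against ZT in hours; the orange band is ± the error expected from the spots, and dark hours are grey. The miR-27b to miR-27a ratio runs between -0.13 at ZT42 and 0.17 at ZT26 and the miR-27a to miR-23a ratio between -0.04 at ZT46 and 0.08 at ZT22; both leave the band on some arrays.

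The entries most like each member over the 12 arrays were taken by Pearson r among the tested entries. For miR-23a they were miR-27a (0.93), miR-23b (0.85) and let-7a (0.80). For miR-27a they were miR-23a (0.93), miR-200a (0.84, at the floor on 3 arrays) and miR-24 (0.78). For miR-24 they were miR-27a (0.78), miR-23a (0.77) and miR-130a (0.74). For the chromosome 8 members and miR-24, 5 of these 9 places went to other members of that group. For miR-23b the most alike entries were let-7d (0.93), miR-107 (0.89) and miR-26a (0.88), and for miR-27b miR-26a (0.87), miR-107 (0.84) and miR-23b (0.80). These r are descriptions over 12 arrays and were chosen as the highest over all other tested entries that did not lie at the floor on all 12 arrays.

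Other clock-related miRNAs gave no calls either. Of a list of 18 that the literature ties to the clock, 15 were tested, the members miR-27b and miR-24 among them, and 0 passed in either direction for a 24-h rhythm, a 12-h rhythm or dark against light. Their median 24-h fold was 1.04, and 2 had a higher and 12 a lower mean in the dark, while miR-219 lay at the floor on all 12 arrays. miR-142-3p and miR-494, reported like miR-27b to repress Bmal1, had a 24-h fold of 1.12 (upper limit 1.34) and 1.13 (upper limit 1.45). Their 12-h folds were 1.05 (upper limit 1.28) and 1.13 (upper limit 1.48). miR-155, another such miRNA, was detected on 0 arrays. miR-29a and miR-30a, reported with miR-24 to act on Period genes, had a 24-h fold of 1.05 (1.15) and 1.02 (1.10), and a 12-h fold of 1.08 (1.17) and 1.04 (1.12). For miR-192 and miR-194, also reported to target Period genes, the 24-h fold was 1.04 (1.15) and 1.04 (1.13), and the 12-h fold 1.07 (1.17) and 1.03 (1.14). miR-107, which dampens insulin sensitivity in liver, had a 12-h fold of 1.12 (1.22) at an unadjusted p of 0.0159 and an adjusted p of 0.622 in limma, and correlated with miR-23b and miR-27b as above.

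In the other lists 0 entries passed an adjusted test in limma. Of 6 endothelial and vascular miRNAs 4 were tested, and of 10 lipid and glucose miRNAs 9. miR-148a, a hepatocyte miRNA, had an unadjusted p of 0.00944 for dark against light (fold 0.949, adjusted p 0.355), of 0.0323 for a 24-h rhythm and of 0.0327 for clock time (adjusted p 0.849 and 0.805), and its r with miR-27b was 0.60 and with miR-27a -0.05. miR-126-3p, the defining endothelial miRNA, had an unadjusted p of 0.0174 for cycle 2 against cycle 1 (fold 1.05, adjusted p 0.866 in limma), and r of 0.67 with miR-23a, 0.71 with miR-23b, 0.57 with miR-27a, 0.31 with miR-27b and 0.30 with miR-24. miR-143 of smooth muscle had an unadjusted p of 0.0367 for a 24-h rhythm (fold 1.34, adjusted p 0.849) and of 0.0282 for clock time (fold 1.46, adjusted p 0.805, in limma), and r with the members between 0.38 and 0.65. Of the 5 leukocyte markers 4 were tested, and of the 3 red cell markers 2.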

How the data were processed

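Total RNA of pooled livers was measured on 12 one-colour Agilent miRNA arrays. Agilent Feature Extraction (version 10.7.3.1 per the file headers, 9.5.3.1 per the submitters' processing notes) made the deposited intensity values, which have the background subtracted and a spatial trend removed on each array but no scaling between arrays. The deposited value table repeats them (largest difference 0; column medians 0.661 to 4.12). Outlier-flagged and control spots were left out, 0 spots were saturated, and spots of a probe were averaged. A probe was detected where over 50% of its spots were well above background. After scaling, a floor of 21.9 units was set and log2 taken; each entry was its brightest probe, and entries that the software called detected on 6 or more arrays entered the tests. Tests used limma 3.58.1 in R 4.3.3 with an intensity trend and Benjamini-Hochberg adjustment over 139 entries at 0.05. Each was tried on simulated data with independent noise per entry, which leaves out effects that arrays share. The simulated folds were larger than those the tests gave for the members, so recovery of such small changes was not tested. The files hold no mean spot signal, so normexp (offset 50) used the median signal. Text names all members, their passenger arms, the 3 most alike entries of each, and list entries named in advance or at an unadjusted p under 0.05. Members and lists were chosen with earlier results of these data known. Mature sequences were found in RefSeq for 4 of the 5 members, the exception being miR-23b.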

Additional observations from a re-analysis of the deposited data

How the results depend on the processing

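No member passed an adjusted p of 0.05 for rhythm, light, clock time or cycle under any alternative run. For all entries the count of 0 was kept except for normexp (1 for the 24-h rhythm, 1 for clock time and 1 for the 12-h rhythm) and slide 1 alone (3 for clock time). Leaving out 1 array gave 0 to 8 entries for clock time, 0 to 2 for dark against light and 0 for the other tests. Correlated pairs, 7 of 10 as reported, numbered 2 with quantile normalization and 1 with total gene signal, and 4 to 10 with 1 array left out. Quantile normalization turned r of miR-23a with miR-27b to -0.0722, and total gene signal turned r of miR-27b with miR-24 to -0.0517. Dark minus light turned for miR-27b with all-probe scaling (0.413) and no scaling (0.0451), and with normexp for miR-27a (-0.122) and miR-24 (-0.0541). Cycle 2 minus cycle 1 of miR-23a, miR-23b and miR-27a turned to -0.51, -0.51 and -0.52 with all-probe scaling, where the median of all entries was -0.50. It turned to -0.0182, -0.0208 and -0.0345 with no scaling. With the slide as a block and on slide 1 alone, which rest on the same pairs at 18 h and 22 h, it turned to -0.0313, -0.0522 and -0.0508. It turned for miR-27a with quantile normalization (-0.00105), for miR-27b and miR-24 with normexp (0.0933 and 0.051) and for miR-24 with the other probe (0.00391). With 1 array left out, dark minus light lay between -0.00817 and 0.0497 for miR-23b and between -0.0574 and 0.007 for miR-27b, and cycle 2 minus cycle 1 between -0.0114 and 0.0572 for miR-27a, -0.065 and 0.00565 for miR-27b and -0.0361 and 0.00133 for miR-24. The causes were not tested. Leaving out each array for the correlations and the other probe were chosen after seeing the data. The labels give no replicate numbers, so the one paired analysis is the cycle test, which pairs arrays 24 h apart by clock time. Signal over background limits the passenger arms, detected on 0 arrays.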
